A study of Homo sapiens with 3 samples.

Results

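The comparison of HaCaT keratinocytes given all-trans retinoic acid together with nicotinamide with HaCaT keratinocytes given all-trans retinoic acid alone used 2 of the 3 arrays of the series. HaCaT is a human keratinocyte line from adult skin that became immortal in culture without a transforming gene being added. The cells were grown in RPMI-1640 medium with fetal bovine serum. The ATRA array held RNA of cells given 1 µM of the retinoid (ATRA), the form of vitamin A that acts in the nucleus, for 36 h. The ATRA+NIC array held RNA of cells given ATRA and nicotinamide (NIC), a form of vitamin B3. The same 1 µM of ATRA and 36 h are recorded for the ATRA+NIC array. The sources used here give neither the dose of nicotinamide nor how long it was applied. The third array, of cells given neither agent and also recorded at 36 h, served as the control, and its levels are printed beside the others. No array held cells given nicotinamide alone, so the values below describe nicotinamide only on top of ATRA. By its title the study concerns the barrier function of the epidermis.

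Retinoic acid enters the nucleus, binds receptors of the RAR and RXR families and thereby switches genes on or off. In skin it is used to treat acne and photoageing, and irritation with a weakened barrier is a known side effect. Nicotinamide is a precursor of NAD, the cofactor consumed by sirtuins and by poly(ADP-ribose) polymerases, and it inhibits both kinds of enzyme. It is also applied to skin in creams. Stressed or irritated keratinocytes are known to induce immediate early genes, ligands of the epidermal growth factor receptor (EGFR), cytokines and chaperones.

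Of 23611 genes measured on both arrays, 12476 passed a filter on dim genes and entered all counts. A gene passed when the mean log2 intensity of its transcripts was, on at least 1 of the 3 arrays, at or above 7.94, the median over all genes and arrays. In the sentences below the 3 intensities of a gene always stand in the order control, ATRA and ATRA+NIC, and a fold compares ATRA+NIC with ATRA. A difference is the log2 level on the ATRA+NIC array minus that on the ATRA array, and a gene counts as lower or higher from 2-fold. There was 1 array a group, so no test was possible, no value has an error between cultures, and the number of arrays limits the precision. Transcripts of 1 gene varied in their differences with a pooled SD of 0.30 (log2). This SD describes scatter between transcripts on the same arrays. It leaves out any error of RNA preparation, labelling or hybridisation that the transcripts share. Intensities of different genes depend on their probes and are not compared with each other.

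The 3 arrays had median transcript intensities of 297.9 to 302.3, and random probes, designed to match nothing human, read 18.4 to 19.6. The correlation of log2 values over named transcripts was 0.978 between ATRA+NIC and ATRA, 0.979 between ATRA and control and 0.986 between ATRA+NIC and control. These 3 values share arrays and describe how near the arrays lie to each other. Of 10 keratinocyte markers 9 passed the filter. Among these, ITGB4, an integrin of hemidesmosomes, was at 28985, 16769 and 20579. TP63, the master transcription factor of the epidermis, was at 4217, 5913 and 2193. Other markers were weaker: KRT14 and KRT1 lay nearer the filter level and KRT10 did not pass, as given below.

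Genes of blood cells stood high on the ATRA array, in cells labelled as a keratinocyte line. HBA1, which encodes the alpha chain of haemoglobin, was at 596, 4072 and 821, and HBB, which encodes the beta chain, at 374, 2549.7 and 571. IGKC, the constant region of the immunoglobulin kappa light chain, was at 222, 819 and 99.5 over 19 transcripts. CD3E, a subunit of the T cell receptor complex, was at 251, 501 and 70.6, and PTPRC, which encodes the leukocyte surface phosphatase CD45, at 33.7, 151 and 18.5. Each of these 5 genes was highest on the ATRA array. Other defining markers stood near the random probes or did not follow the pattern. The B cell gene MS4A1 was at 20.5, 19.2 and 25.9, and LYZ, a lysozyme gene of myeloid cells, was at 117, 75.3 and 86.1. In 7 blood lists written after values were seen, the summed intensity on the ATRA array was the highest of the 3 arrays in each. It was 2507, 11923 and 3143 for 20 haemoglobin and erythroid genes, 1847, 3823 and 1506 for 16 immunoglobulin and B cell genes and 3614, 5900.5 and 2176 for 26 T and NK cell genes. It was 2318, 4247 and 2547 for 25 myeloid genes, 27064, 37266 and 31192 for 15 genes common to leukocytes, 4173, 7673 and 4590.0 for 10 MHC class II genes and 2417, 3635 and 2489.7 for 11 platelet genes. The earlier list of 14 leukocyte markers summed to 2920.0, 5715 and 3305, and 3 of its 5 members past the filter were lower. Of the 5, 2 passed on the ATRA array alone. The 10 keratinocyte markers summed to 108499, 74663 and 72393. Cytokine, early response and stress genes described below are also expressed by blood cells, and the part of blood cell RNA in those results was not tested. Without the genes of the blood lists and the leukocyte markers, 434 genes were lower and 168 higher. In RNA of a whole culture, fewer cells of a type and less RNA per cell cannot be told apart.

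**Figure D1:**
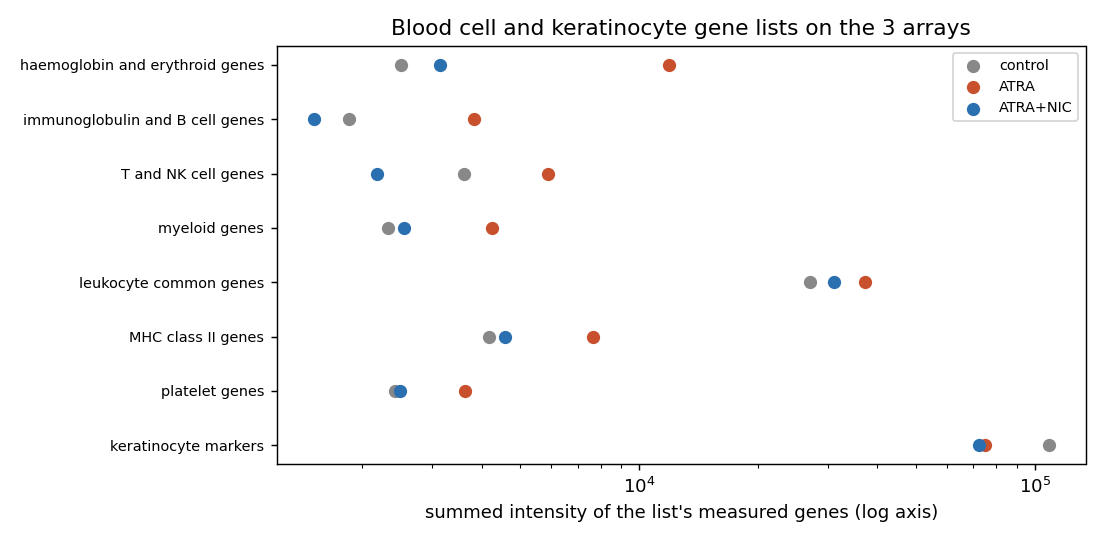
Summed intensity (log axis) of the measured genes of 7 blood cell lists and of the keratinocyte markers, with 1 point for each of the 3 arrays. Points are to be compared within a row: the ATRA array is the highest in all 7 blood rows, while the keratinocyte markers sum to 74663 with ATRA and 72393 with ATRA+NIC.

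Across all genes past the filter the difference had a median of 0.05 and quartiles of -0.22 and 0.30. A majority of all genes thus lay above 0, and counts of list members above or below 0 are to be read against that. On the ATRA+NIC array 466 genes (3.74%) were at least 2-fold lower and 169 genes (1.35%) at least 2-fold higher than on the ATRA array, together 5.09%. The shares of 3.74% and 1.35% are the background for every list count below. Some genes stand in several lists and are counted in each, so counts of different lists are not independent. Larger differences lay mostly on the lower side: 107 genes were at least 4-fold lower against 12 higher, and 37 at least 8-fold lower against 2 higher. The lower genes had median log2 levels of 8.92 (control), 10.27 (ATRA) and 8.73 (ATRA+NIC). The higher genes had medians of 9.28, 8.17 and 9.37. So the ATRA array was the one that stood apart in both sets, and it enters both the choice of the sets and these medians. Among genes with several transcripts, all transcripts pointed the same way in 273 of 277 lower genes and 61 of 62 higher genes. Of the lower genes, 133 reached the filter on the ATRA array alone, and 25 of the higher genes on the ATRA+NIC array alone. The filter thus fixed the direction of these, though not the 2-fold size. Such genes also stand in lists below where this is not repeated. With the filter set on the control array, so that neither of the levels compared decided which genes passed, 326 genes (2.76%) were lower and 144 (1.22%) higher. Dim genes were called more often: of the 3119 dimmest genes by mean level 195 were lower and 87 higher, and of the 3119 brightest 66 and 6. The higher set was the less well annotated, with locus or clone names for 29.0% of its genes, against 5.36% of the lower set and 11.5% of all genes past the filter.

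**Figure D2:**
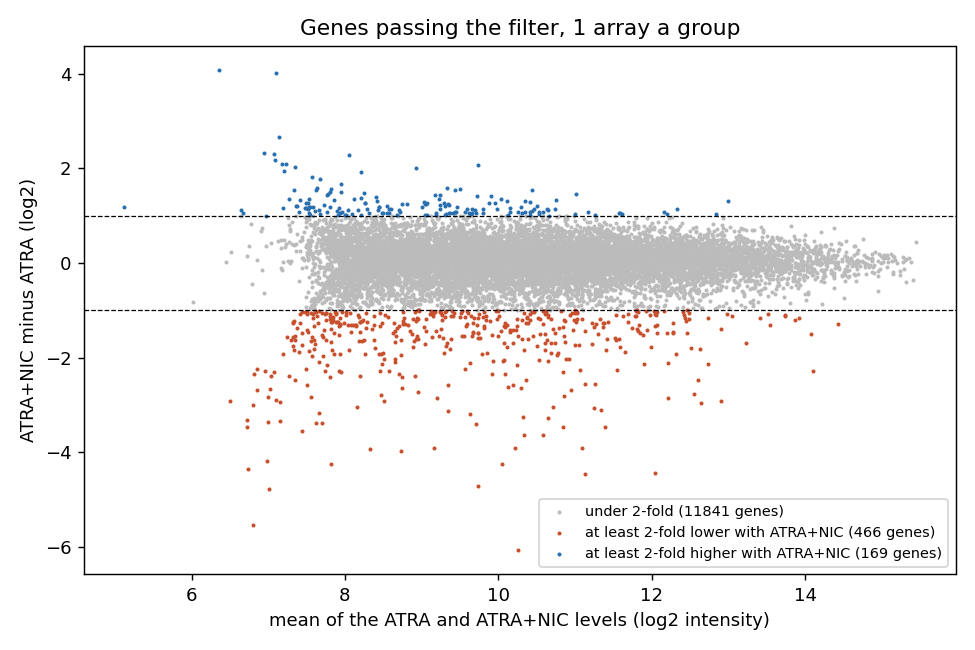
Difference of each gene between the ATRA+NIC and ATRA arrays (log2) against the mean of both levels (log2 intensity), with 1 point a gene for the 12476 genes past the filter. The dashed lines mark 2-fold. The 466 lower genes reach down to -6.07 (HMOX1). The 2 uppermost points, CFAP54 and OR13G1, are under 50 on the ATRA array, so their heights are not exact.

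The gene with the lowest difference was HMOX1, which encodes heme oxygenase 1, the stress-inducible enzyme that breaks down heme. It was at 551, 10039 and 149, and thus 67.4-fold lower with ATRA+NIC than with ATRA and also below the control array. Its 2 transcripts had differences of -6.29 and -5.86. In the hg18 annotation of the files HMOX1 lies on chromosome 22 at 34107086 to 34120199. The lowest 20 genes with several concordant transcripts further held the early response genes EGR1, EGR2, EGR3, FOS, JUN, ATF3 and NR4A1 and the chemokine genes CCL4 and CCL3L1, described below. They also held genes that are typical of blood cells. PRF1, which encodes the pore protein of killer cells, was at 149, 351 and 31.7, GMFG, a regulator of actin in blood cells, at 111, 453 and 44.6 and the immunoglobulin segment IGKV1-5 at 192, 609 and 67.6. TCIM, a positive regulator of WNT signalling, was at 116, 598 and 50.8. PRF1, GMFG, IGKV1-5 and TCIM each passed the filter on the ATRA array alone, so each had to be highest there.

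The 20 highest genes by the same rule were of mixed kinds. ARHGEF25, an activator of the GTPase RhoA, led them at 109.5, 60.8 and 298 (4.90-fold higher). STPG3 was at 256, 64.0 and 288, NPY4R, a receptor for pancreatic polypeptide, at 266, 72.8 and 309 and LALBA, the milk protein alpha-lactalbumin, at 1276, 242 and 974. CROT, a peroxisomal enzyme of fatty acid breakdown, was at 626, 344 and 811 and GBF1, which activates ARF GTPases at the Golgi, at 824, 404 and 973. A GBF1 transcript was under 50 on the ATRA array, so it was at least 1.85-fold higher. HSPA12B was at 294, 119 and 283, YJEFN3 at 567, 292 and 694 and CEND1, a gene of neurons, at 611, 138 and 325. The histone gene H2BC11 was at 809.9, 392 and 922. DEFA1, a defensin of neutrophils, was at 25.1, 246 and 569 and thus, unlike the haemoglobin genes above, highest on the ATRA+NIC array. The other 9, described below, were E2F2, PCNA, CLSPN, INCENP, KIF18B, SPC24, H1-5, HOXC8 and CYP1A1.

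**Figure D3:**
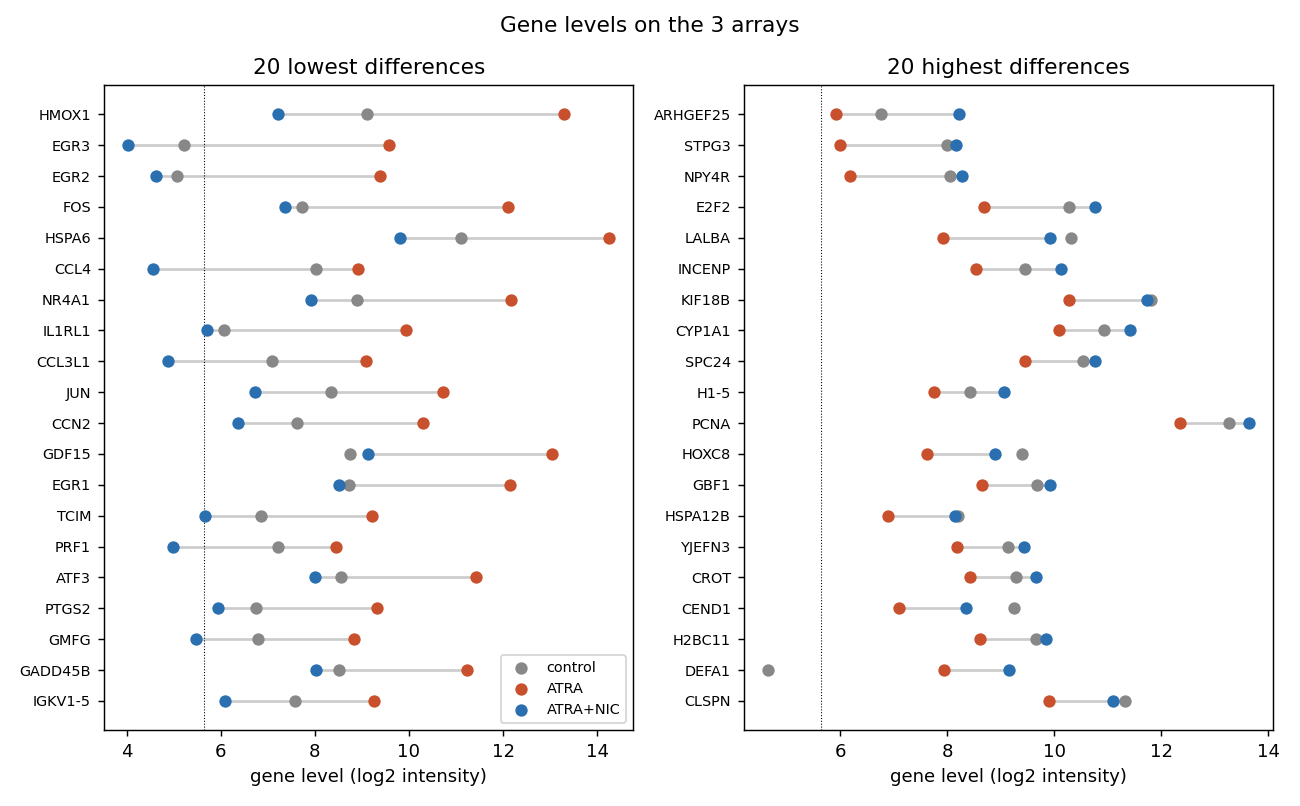
Level of the 20 genes with the lowest and the 20 with the highest difference (log2 intensity), with 1 colour for each of the 3 arrays, among genes with at least 2 transcripts that all pointed the same way. The dotted line marks an intensity of 50. On the left the ATRA point is the rightmost for all 20 genes, and on the right it lies below the ATRA+NIC point for all 20. The choice of genes fixed the order of the ATRA and ATRA+NIC points. EGR2, EGR3, FOS, IL1RL1, CCL3L1, CCN2, TCIM, PRF1, PTGS2, GMFG and IGKV1-5 passed the filter on the ATRA array alone. For these the control point also had to lie below the ATRA point. On the right CEND1, HOXC8, LALBA, CLSPN, KIF18B and HSPA12B are highest on the control array and DEFA1 is lowest on it.

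Immediate early transcription factors, which cells switch on within minutes of a growth or stress signal, lay below 0 in every member past the filter of the AP-1 and EGR lists. Of 11 AP-1 genes past the filter 8 were lower and 0 higher, against 3.74% and 1.35% of all genes, with a median difference of -1.27 against 0.05. Of the 11, 1 passed on the ATRA array alone, and over all 14 measured the median was -1.19. FOS was at 211, 4372 and 165, which is 26.4-fold lower. FOSB was at 1002, 10496 and 479 (21.9-fold) and JUN at 325, 1683 and 107 (15.8-fold). These 3 genes encode partners of the AP-1 dimer, and each stood on the ATRA+NIC array below its control level. MAFF, a small MAF factor, was at 1439, 7625 and 878 and FOSL1, which encodes the FOS-like factor FRA-1, at 10679, 38987 and 7953. FOSL2, JUND and MAFG differed less, by 2.41-fold, 2.40-fold and 2.16-fold. Of 23 genes of the EGR, SRF and IER group 16 were lower and 0 higher (median -1.20, also over all 25 measured), and 4 of the 23 passed on the ATRA array alone. EGR1, an early zinc finger factor, was at 421, 4547 and 366, hence 12.4-fold lower. EGR2 and EGR3 were under 50 on the other arrays, at 33.7, 671 and 24.5 and at 37.3, 759.7 and 16.3, and so are given as at least 13.4-fold and at least 15.2-fold lower. ATF3, a stress-induced factor, was at 375, 2734 and 257, and ZFP36, whose product destabilizes cytokine messengers, at 889, 4987 and 774. CCN2 and CCN1, secreted matricellular proteins controlled by YAP and SRF, were at 198, 1250.1 and 82.2 and at 6471, 9897 and 2607, and both were lowest on the ATRA+NIC array. MYC, the growth factor-induced regulator of cell growth, was at 13859.9, 22724 and 9908, a 2.29-fold lower level. The other members past 2-fold were PPP1R15A, TRIB1, CSRNP1, IER2, IER3, BTG1, BTG2 and ZFP36L1, lower by 2.12-fold to 7.51-fold. NR4A1 and NR4A2, orphan nuclear receptors of the early response, were at 478, 4635 and 243 and at 242, 882 and 255. Among 10 Kruppel-like factors 5 were lower and 0 higher: KLF2, KLF4, KLF6, KLF7 and KLF10, by 2.29-fold to 4.44-fold. Of the 10, 1 passed on the ATRA array alone.

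Stretches of 50 bases before the start of some early genes show a sequence that early promoters are known for. These genes were picked among the lower genes because their windows hold the motif, so they do not show how common it is. Other genes with larger differences are not shown. Sequences are from RefSeq (GRCh38.p14), run 5′ to 3′ in the direction of the gene, and the capitals mark the motif named. In EGR1 it is the CArG box, the element bound by SRF, at 105 and 83 bases before the start. In the other 4 it is TGACGTCA, the cyclic AMP response element (CRE), which reads alike on both strands.
EGR1 (chr5:138465364-138465413, plus strand): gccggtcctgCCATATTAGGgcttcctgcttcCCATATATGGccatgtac
MAFF (chr22:38201919-38201968, plus strand): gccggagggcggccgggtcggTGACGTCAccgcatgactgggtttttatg
PPP1R15A (chr19:48872346-48872395, plus strand): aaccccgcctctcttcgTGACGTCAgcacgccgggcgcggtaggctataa
AREG (chr4:74445051-74445100, plus strand): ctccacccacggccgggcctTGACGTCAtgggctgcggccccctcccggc
DUSP1 (chr5:172771291-172771340, minus strand): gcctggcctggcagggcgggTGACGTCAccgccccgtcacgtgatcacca
A promoter window ran from 250 bases before to 50 after the start, and both strands were searched. Where the table lists several starts for a gene, the first was taken. A window was found for 8667 of the 12476 genes, among them 331 lower and 96 higher genes. The CArG box stood in 1.29% of the 27305 windows of the whole table, in 1.18% of the windows of genes past the filter in 2.11% (7 of 331) of those of lower genes and in 3.13% (3 of 96) of those of higher genes. For the CRE these shares were 1.98%, 3.46% and 4.83% (16 of 331), and 2.08% (2 of 96) for higher genes. TGACTCA, the AP-1 site, which can overlap a longer site bound by NFE2-type factors, stood in 4.92% of all windows, 3.14% of those past the filter, 8.16% (27 of 331) of those of lower genes and 5.21% (5 of 96) of those of higher genes. A TATA box, TATAAA or TATATA on the gene's strand between 40 and 16 bases before the start, was found in 2.86% of the windows past the filter, in 12.4% of lower genes and in 13.5% of higher genes. A match describes the letters and is neither a bound site nor a cause.

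Some ligands of EGFR and some feedback inhibitors that EGFR signalling induces were lower, while most members of both lists were not past 2-fold. HBEGF, heparin-binding EGF, was at 313, 4618 and 305 (15.1-fold lower), AREG, amphiregulin, at 1084, 6124 and 555 (11.04-fold) and EREG, epiregulin, at 236, 1591 and 267 (5.95-fold). All of them were several-fold higher on the ATRA array than on both others. NRG1, a ligand of ERBB3 and ERBB4, went through 2284, 1713 and 680.4 and so was lowest on the ATRA+NIC array. With these, 4 of 10 ligand and receptor genes were lower and 0 higher, and 3 lay above 0 (median -0.53). The receptor gene ERBB3 was at 848, 628 and 1002, a difference of 0.67. Of 11 MAP kinase phosphatases, which switch off ERK, JNK and p38, 7 were lower and 0 higher, with a median of -1.42. DUSP1 was at 719, 5409 and 434 and DUSP5 at 849, 7038 and 842. DUSP2, DUSP4, DUSP6, DUSP8 and DUSP16 were lower by 2.03-fold to 5.34-fold. ERRFI1, whose product binds and inhibits EGFR, was at 1784, 8886 and 804 and SPRY4, a Sprouty inhibitor, at 947, 4927 and 697. PHLDA1 was at 2749, 5696 and 1669, and SPRY2, by contrast, differed only by -0.70. With SOCS3, 4 of the 11 feedback inhibitor genes were lower (median -0.57). SOCS3 passed the filter on the ATRA array alone, which fixed its direction. Among inducible small GTPases and RGS genes 7 of 9 were lower (median -2.35), and 4 of the 9 passed the filter on the ATRA array alone. Over all 13 measured the median was -1.65. RHOB and RND3, which control the actin cytoskeleton, were at 711, 2445 and 480.5 and at 610.2, 2191 and 427.

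Chemokines and cytokines formed the next lower group. Of 13 measured CXC chemokine genes 6 passed the filter and 5 of these were lower (median -2.19). Of the 6, 2 passed on the ATRA array alone and so had to lie below 0. Over all 13 measured genes the median was -0.25, with 9 below 0. CXCL8, which encodes the neutrophil attractant interleukin 8, was at 438, 4837 and 582 (8.31-fold lower). CXCL1, CXCL2 and CXCL3, which act on the same receptor, were at 657, 2501 and 886, at 411, 2187 and 526 and at 24.8, 550.2 and 111. On the ATRA+NIC array each of the 4 lay above its control level. PPBP, the platelet chemokine, was at 55.4, 354 and 67.6, while CXCL16 hardly differed (-0.03). CCL3 and CCL4, macrophage inflammatory proteins, were at 491, 996 and 133 and at 259, 481 and 23.6, and their probes may also bind the near-identical copies CCL3L1 and CCL4L1. CCL2, a monocyte attractant, differed by only -0.23. IL1A and IL1B, the alarm cytokines of keratinocytes, were at 1062, 3952 and 411 and at 3769.9, 7999.6 and 1826, and IL1RL1, the interleukin 33 receptor, at 67.2, 982 and 51.9. These were the 3 lower genes among 7 of the interleukin 1 family past the filter, whose 16 measured genes had a median of -0.26. Of the 7, 1 (IL1RL1) passed on the ATRA array alone and so had to lie below 0. Of 13 genes of the interleukin 6 family and its SOCS inhibitors 7 were lower. Of the 13, 2 passed on the ATRA array alone, and over all 17 measured the median was -1.08. LIF was at 2167, 7713 and 3182, SOCS3 at 209.5, 1109 and 211 and the oncostatin M receptor OSMR at 712, 1249.7 and 593. SOCS1, CLCF1, PIM1 and CISH were the other 4, by 2.13-fold to 4.71-fold. Among other cytokines TNF was at 339, 353 and 108, IL23A at 79.5, 287 and 92.8 and IL32 at 310.2, 749 and 241, with TNFSF9 and LTB also lower, so 5 of 10 members. IL23A passed on the ATRA array alone, which fixed its direction. TNFSF10, the death ligand TRAIL, differed the other way, at 1188, 2071 and 3049 (0.56).

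The 3 neighbouring chemokine genes CXCL1, CXCL2 and CXCL3 on chromosome 4 share a kappaB site, the element bound by NF-kappaB, near the start, and CXCL8 in the same region holds an AP-1 site, as the capitals show. The capitals of the first 3 cover a pair of kappaB matches shifted by 1 base.
CXCL1 (chr4:73869298-73869347, plus strand): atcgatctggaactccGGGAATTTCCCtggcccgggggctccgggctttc
CXCL2 (chr4:74099241-74099290, minus strand): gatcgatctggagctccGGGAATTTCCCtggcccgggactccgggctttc
CXCL3 (chr4:74038735-74038784, minus strand): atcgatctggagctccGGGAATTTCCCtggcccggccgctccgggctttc
CXCL8 (chr4:73740419-73740468, plus strand): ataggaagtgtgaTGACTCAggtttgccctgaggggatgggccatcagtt
A kappaB match stood in 5.72% of all windows, in 6.78% of those past the filter, in 8.46% (28 of 331) of those of lower genes and in 8.33% (8 of 96) of those of higher genes.

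Within NF-kappaB and TNF signalling 6 of 29 genes were lower and 0 higher, with a median of -0.48. TNFAIP3, a ubiquitin-editing inhibitor of the pathway, was at 599, 1727 and 455 and NFKBIZ, an inducible coactivator, at 608, 1858 and 692. ICAM1, an adhesion receptor for leukocytes, was at 2422, 8224 and 2999 and BIRC3, an apoptosis inhibitor, at 651, 3081 and 1343. TNFRSF10B and TRAF1 were the others. BIRC3 and ICAM1 were above their control levels on the ATRA+NIC array, and TNFAIP3 below it. Of 11 eicosanoid (prostaglandin and leukotriene) genes past the filter 2 were lower and 0 higher, with a median of -0.04. Both lower genes passed on the ATRA array alone, which fixed their direction. PTGS2, the inducible cyclooxygenase, was at 107, 636 and 61.2 and the prostaglandin receptor PTGER4 at 144, 532.5 and 109.9. LTB4R, the leukotriene B4 receptor, was at 5381, 2553 and 4947 and so higher with ATRA+NIC by 0.95, just under the limit. Of 8 antimicrobial genes 3 were lower. ADM, adrenomedullin, was at 3704, 10866 and 3137 and PI3, elafin, at 1539, 1057 and 508. S100A9, a subunit of calprotectin that neutrophils also carry, was at 376, 812 and 397. LCN2, lipocalin 2, stayed high on both retinoid arrays, at 5948, 23318 and 19231.

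Chaperones of the endoplasmic reticulum and the genes of the unfolded protein response were lower in 12 of 28 cases and higher in 0, and 27 of the 28 differences lay below 0 (median -0.95). Of the 28, 1 (DNAJB9) passed on the ATRA array alone, which fixed its direction. HERPUD1, which helps degrade misfolded proteins, was at 2993, 17877 and 2293. DNAJB9, a cochaperone, was at 54.1, 395 and 51.2 and the stress sensor kinase gene EIF2AK3, known as PERK, at 837, 2442 and 683. The second sensor gene ERN1, known as IRE1, was at 373, 973 and 327. HSPA5, the chaperone BiP, was at 404, 1283 and 439 and XBP1, the transcription factor spliced by IRE1, at 5479.6, 12349 and 4722. On the ATRA+NIC array all of these lay within about 2-fold of their control level. SDF2L1, CRELD2, MANF, HYOU1, EDEM1 and SELENOS were the other lower members, by 2.00-fold to 3.43-fold. In the ATF4 group, which responds to amino acid shortage and translational stress, 16 of 33 genes were lower and 0 higher (median -0.92). GDF15, a stress-induced hormone of the TGF-beta family, was at 430.1, 8404 and 562 (14.95-fold lower). DDIT3, the proapoptotic factor CHOP, was at 1549, 12716 and 1762, TRIB3, a pseudokinase that restrains ATF4, at 828, 5426 and 917 and CHAC1, a glutathione-degrading enzyme, at 2840.5, 14628 and 2636. VEGFA, the vascular growth factor, was at 3014, 9905 and 2274. Of enzymes and transporters of amino acid supply, SLC7A11, the cystine carrier, was at 1336, 2721 and 1031 and SLC38A2 at 6773, 12459 and 5713. GARS1, MTHFD2, STC2, NUPR1, CEBPB, CEBPG, DDIT4, SESN2 and PPP1R15A completed the 16.

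The ER stress element, bound by ATF6, has been described in promoters of this group. It stood in 5 of the 331 windows of lower genes (1.51%), namely those of CRELD2, FICD, HSPA5, SERP1 and XBP1. The share was 0.081% of all windows and 0.150% of those past the filter (13 of 8667), with 0 of 96 in higher genes. The windows of 3 of them are printed with the element in capitals, and in CRELD2 it runs on the other strand.
HSPA5 (chr9:125241379-125241428, minus strand): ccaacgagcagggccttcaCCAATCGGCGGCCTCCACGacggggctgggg
XBP1 (chr22:28800595-28800644, minus strand): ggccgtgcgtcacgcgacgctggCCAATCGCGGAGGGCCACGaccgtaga
CRELD2 (chr22:49918534-49918583, plus strand): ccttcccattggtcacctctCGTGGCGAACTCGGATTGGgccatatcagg
FICD was at 393, 935 and 408 and SERP1 at 1229.8, 2258 and 1072. The ATF4 response element, searched as TGATGNAAT, was not more frequent in windows of lower genes: it stood in 1.02% of all windows, 0.450% of those past the filter, 0.302% (1 of 331) of those of lower genes and 2.08% (2 of 96) of those of higher genes.

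Heat shock genes were lower in 7 of 25 cases (median -0.63). HSPA6, a strictly stress-inducible HSP70, was at 2190.0, 19615 and 902 (21.8-fold lower). The cochaperones DNAJB1 and DNAJB4 were at 9164, 29088 and 10197 and at 262, 1272 and 193. HSPA1A, the main inducible HSP70, was at 14403, 34356 and 14035, and its probes may bind the near-identical HSPA1B. DNAJA4, HSPH1 and HSPB8 were the other 3. The window of HSPA6 holds a heat shock element, an array of short inverted repeats bound by HSF1.
HSPA6 (chr1:161524445-161524494, plus strand): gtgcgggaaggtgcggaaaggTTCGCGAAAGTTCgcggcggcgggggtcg
This element stood in 0.487% of all windows, 0.288% of those past the filter and 0.906% (3 of 331) of those of lower genes. It stood in 0 of 96 windows of higher genes. The lower genes with a match were HSPA6, CD83 and FBXW10, so HSPA6 was the only lower gene of the heat shock list among them.

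Antioxidant genes did not follow HMOX1 as a group. Of 33 NRF2 targets and antioxidant enzymes 5 were lower and 0 higher, and the median difference was 0.03. OSGIN1, an oxidative stress-induced growth inhibitor, was at 668, 4673 and 978 and SRXN1, sulfiredoxin, at 3831, 8551 and 3669.6. SLC7A11, SESN2 and GCLC, the catalytic subunit of glutathione synthesis (409, 826 and 392), were the others. SLC7A11 and SESN2 are also counted in the ATF4 group. The NRF2 target NQO1 stood at 5897, 5161 and 7200.3, higher by 0.48. Of 16 heme and iron genes HMOX1 alone was past 2-fold, and 13 of the differences lay above 0. None of 10 metallothionein and zinc transport genes was past 2-fold.

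Growth arrest genes were lower in part. Of 27 p53 targets and arrest genes 7 were lower and 0 higher (median -0.18). CDKN1A, the cell cycle inhibitor p21, was at 4343, 14255 and 3250.1. GADD45A and GADD45B, DNA damage and stress sensors, were at 2558, 6602 and 1367 and at 365, 2398 and 261, and PLK3 at 883, 3128 and 501. All 4 were lowest on the ATRA+NIC array. BBC3 and PMAIP1, the proapoptotic BH3 genes PUMA and NOXA, were at 376, 1506 and 503 and at 1644, 4763 and 1571, and BNIP3, a mitophagy receptor induced by hypoxia, at 909, 1169 and 384. BMF, a further BH3 gene, was higher, at 338, 259 and 537 (2.07-fold). Hypoxia response and glycolysis genes were lower in 11 of 31 cases (median -0.35). CA9, carbonic anhydrase 9, was at 1905, 5975 and 1010.2 and EGLN3, an oxygen sensor, at 417, 947 and 185. NDRG1 was at 7059, 15746 and 2305 and HK2, hexokinase 2, at 1093, 2045 and 595. On the ATRA+NIC array these 4 were below their control levels.

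Protease and matrix genes were mixed. Of 14 genes of the plasminogen activator system and TIMPs 6 were lower (median -0.93). PLAU, urokinase, was at 4308, 17198 and 5339 and its receptor PLAUR at 1462, 4249 and 1502. The inhibitor SERPINB2 was at 493, 1070.5 and 171, so an activator and an inhibitor were both lower. Tissue factor, F3, was at 6129, 8304 and 2973 and thrombomodulin, THBD, at 977, 2088 and 650.4. MMP10 and MMP1, matrix-degrading proteases, were at 215, 386 and 69.3 and at 1939, 1977 and 892. MMP10 passed the filter on the ATRA array alone, which fixed its direction. Thrombospondin 1, THBS1, was at 10959.9, 5198 and 2535 and so declined over the 3 arrays in the order given. None of 15 integrin genes was past 2-fold, with ITGA5 at 2176, 3749.9 and 2165 the most different.

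Of 18 transcription factors of the epidermis 7 were lower and 0 higher (median -0.49). Of the 18, 2 passed on the ATRA array alone, and over all 25 measured the median was -0.34. KLF4, needed for barrier formation, was at 585, 3922 and 965 and OVOL1, a differentiation factor, at 495, 3296 and 786. TP63, with the values given above, was 2.70-fold lower. CEBPA and CEBPB were at 905, 1918 and 834 and at 2924, 7182 and 2572, and GRHL1, a factor of epidermal differentiation, at 146, 492 and 225. The structural genes mostly differed by under 2-fold. Of 18 cornified envelope and related genes S100A9 alone was lower (5.56%, against 3.74% of all genes, median 0.06). FLG, filaggrin, was at 421, 224 and 430.2 and IVL, involucrin, at 5316, 2329 and 3922, each lowest on the ATRA array. TGM1, the crosslinking transglutaminase, stayed at 519.6, 523 and 527. LORICRIN, at 39.5, 45.9 and 38.5, and KRT10, at 53.2, 66.6 and 93.0, did not pass the filter. None of 11 epidermal keratins was past 2-fold. The wound keratins KRT6A, KRT6B and KRT6C, whose probes may bind each other's messengers, differed by -0.95, -0.90 and -0.99. KRT6A was at 5785, 3314 and 1715 and so declined over the 3 arrays. The basal keratin KRT5 was at 29746, 10041 and 10009, without a difference between the retinoid arrays, and KRT14 at 372, 385 and 452. KRT1 was at 284, 354 and 214.

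Among 21 tight junction genes PARD6B, a polarity gene, was the 1 lower member, at 175, 387 and 186. PARD6B passed the filter on the ATRA array alone, which fixed its direction. The share of lower members, 4.76%, was near the 3.74% of all genes. OCLN, occludin, was at 357, 858 and 466, CLDN1, the claudin whose loss opens the epidermal barrier, at 8786, 8152 and 5183 and CLDN4 at 10754, 20717 and 18909. CLDN1 was lowest on the ATRA+NIC array, and CLDN4 stayed near its ATRA level. Of 20 desmosome and adherens junction genes DSG3, desmoglein 3 (1542, 2914 and 1147), and VCL, vinculin (5319, 7966 and 3972), were lower. None of 23 sphingolipid and epidermal lipid genes was past 2-fold, the most different being FA2H, a fatty acid hydroxylase, at 87.2, 441 and 241. Among 34 cholesterol and fatty acid genes 3 were lower (8.82%, against 3.74% of all genes). HMGCS1, an enzyme of cholesterol synthesis, was at 1444, 1914 and 717 and INSIG1, which holds back sterol sensing, at 613, 939 and 423. Of 17 kallikrein and desquamation genes none was past 2-fold, with KLK5 at 1985, 2669 and 3140.2 and KLK7 at 543, 729 and 724. HAS2, a hyaluronan synthase, was at 823, 2940.3 and 915, and AQP3, the water and glycerol channel of keratinocytes, at 2698, 5194 and 3106. CEACAM5 and CEACAM6, mucosal adhesion genes, were at 33.9, 378 and 123 and at 24.6, 344 and 162, remaining above control on the ATRA+NIC array. Both passed the filter on the ATRA array alone, which fixed their direction.

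The genes of retinoid handling differed little between the retinoid arrays. None of 13 synthesis and degradation enzymes and none of 13 receptors and binding proteins was past 2-fold, with medians of 0.01 and -0.08. CYP26A1 and CYP26B1, which degrade retinoic acid, were at 77.3, 342 and 595 and at 432, 1851 and 2445. Both were highest on the ATRA+NIC array. DHRS9, a retinol dehydrogenase, was at 27.3, 434 and 231. RARG, the main retinoic acid receptor of skin, was at 3439, 4027 and 3809 and CRABP2, which carries retinoic acid to it, at 5549, 6767 and 6377. RARA was at 1601, 2408 and 1312, a difference of -0.88. RARB, at 19.3, 23.6 and 22.5, lay near the random probes. The DR5 retinoic acid response element, a pair of direct repeats, was found in 0 of the 8667 windows past the filter, which says only that these letters are not in them. Of 17 known retinoid responders 4 were lower, namely CDKN1A, ICAM1, BTG2 and BHLHE40, which also belong to other groups described here. GPRC5A, named for its induction by retinoic acid, was at 7346, 20497 and 13042, and PLAAT4, also known as RARRES3, at 260.1, 380.1 and 663. Of 20 HOX genes 1 was higher, HOXC8 at 672, 198 and 477, and 19 lay above 0 (median 0.34).

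In the pathways that nicotinamide enters, NAMPT, the enzyme that turns nicotinamide into its mononucleotide, was at 3173, 6194 and 2209. It was 2.80-fold lower with ATRA+NIC than with ATRA, and the 1 lower gene among 10 of NAD synthesis. NNMT, which methylates nicotinamide, was at 46.1, 41.1 and 32.3 and did not pass the filter. SIRT1, a NAD-dependent deacetylase, was at 396, 696 and 357, a difference of -0.96, and none of 6 sirtuins was past 2-fold. PARP1 was at 7699, 4954 and 7169.8, and none of 15 PARP genes was past 2-fold. The kynurenine gene IDO2 was at 271, 23.0 and 52.3, so at or below the dim range on both retinoid arrays, and its fold is given only as at least 1.05.

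Genes of DNA replication and cell division lay mostly above 0, that is, higher on the ATRA+NIC array. The 62 genes of replication had a median log2 level of 11.44, 11.06 and 11.45, and the 47 mitosis genes of 11.51, 11.19 and 11.54, lowest on the ATRA array in both. Of the 62 genes of replication and the G1/S step 57 had a difference above 0, with a median of 0.51 against 0.05 for all genes, and 6 were at least 2-fold higher, against 1.35% of all genes. E2F1 and E2F2, transcription factors of S phase entry, were at 1814, 1143 and 2286 and at 1247, 415 and 1744. PCNA, the sliding clamp of DNA polymerase, was at 9858, 5194 and 12801 and CLSPN, claspin, a checkpoint protein at the replication fork, at 2574, 952 and 2200.1. GINS1, a helicase subunit, was at 758, 279 and 659.5 and LIG1, the replicative ligase, at 1133, 616 and 1286. Each of these 6 genes was lowest on the ATRA array. Of 47 mitosis genes 45 had a difference above 0 (median 0.45) and 3 were higher. MKI67, the proliferation marker, was at 3782, 1718 and 3487, INCENP, a subunit of the chromosomal passenger complex, at 706, 371 and 1113 and BIRC5, survivin, a further subunit, at 1883, 941 and 1979. Because a BIRC5 transcript was under 50 on the ATRA array, its fold is at least 1.93. Kinesin gene KIF18B and kinetochore gene SPC24, in no list, were at 3572, 1245 and 3415 and at 1489, 700.3 and 1739. None of 27 repair genes was past 2-fold, with 23 above 0 (median 0.36) and UNG, uracil glycosylase, at 11211, 5596 and 10806. Of 23 replication-dependent histone genes 4 were higher and 22 lay above 0 (median 0.51), among them H1-5 at 345, 217 and 536 and H4C3 at 4974, 3142 and 6665.

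The start regions of E2F2 and E2F1 are shown with the E2F site in capitals, here TTTGGCGC.
E2F2 (chr1:23531244-23531293, minus strand): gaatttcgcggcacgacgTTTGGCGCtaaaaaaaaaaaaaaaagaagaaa
E2F1 (chr20:33686396-33686445, minus strand): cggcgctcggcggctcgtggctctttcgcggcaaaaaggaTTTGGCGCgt
A match to TTTGGCGC or TTTCGCGC on either strand stood in 1.18% of all windows, in 2.28% of those past the filter, in 6.25% (6 of 96) of those of higher genes and in 0.906% (3 of 331) of those of lower genes. TTTGAA, part of the cell cycle homology region of mitosis genes, was more widespread, in 15.4% of all windows, 9.55% of those past the filter, 14.6% (14 of 96) of higher and 7.55% (25 of 331) of lower genes.

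**Figure D4:**
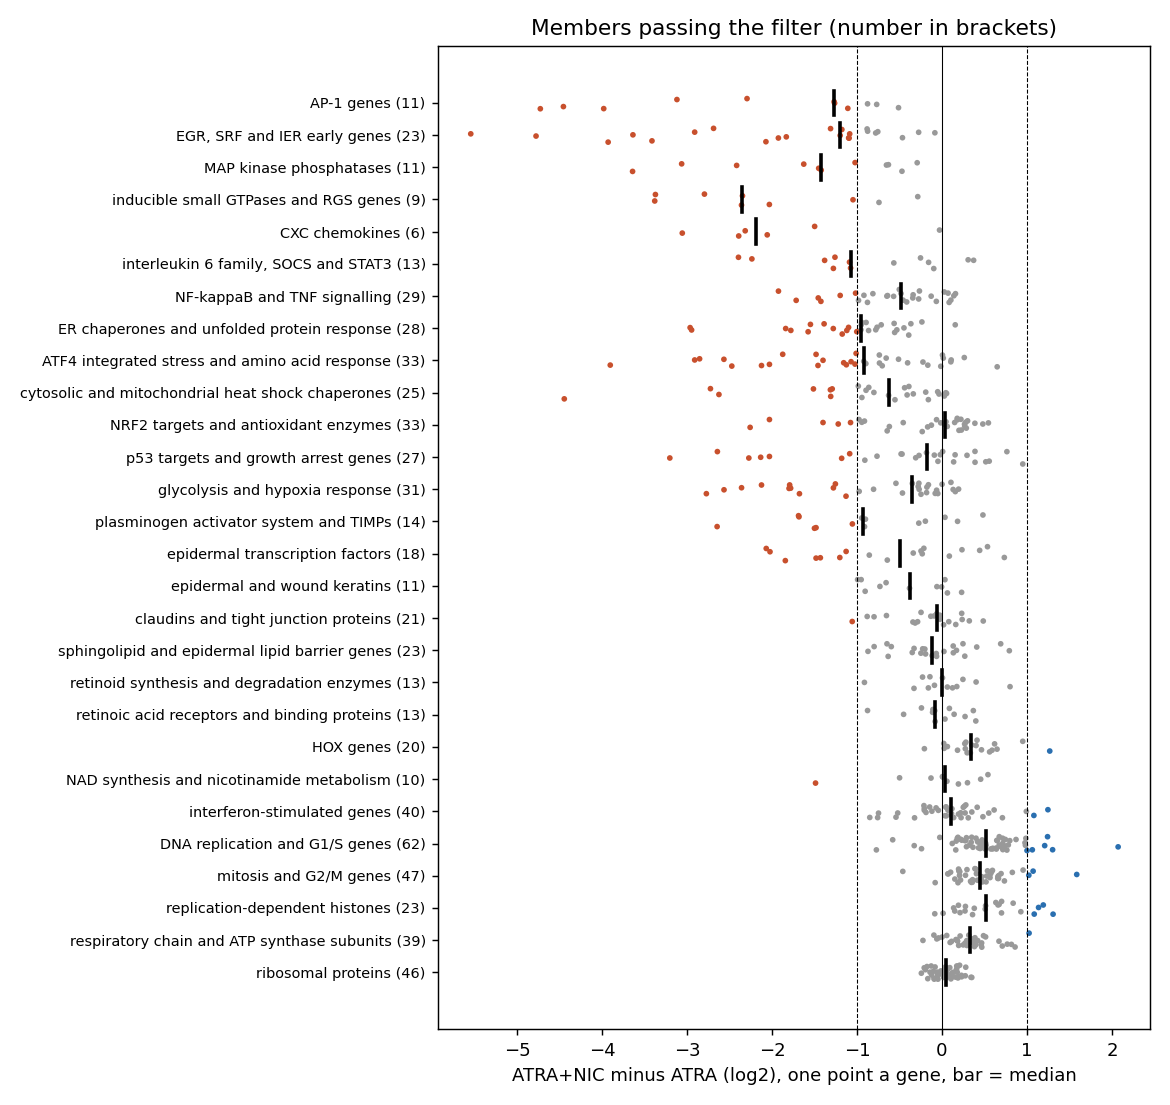
Difference between the ATRA+NIC and ATRA arrays (log2) of each member past the filter in 28 gene lists, with 1 point a gene and a bar at the median; the number of members is in brackets. Red points are at least 2-fold lower and blue points at least 2-fold higher. Early response, chemokine and ER stress lists lie to the left, the replication, mitosis and histone lists to the right of 0, and the ribosomal proteins, with a median of 0.05, close to it.

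Housekeeping genes mostly differed little. None of 46 ribosomal protein genes was past 2-fold, and their differences were centred on 0.05. GAPDH was at 37805, 32056 and 34485 and ACTB at 44283, 39706 and 41988. Of 24 reference genes TOP1, topoisomerase 1, was the 1 lower member (4.17%, against 3.74% of all genes), at 3181, 6154 and 2909. Of 39 respiratory chain and ATP synthase subunits 35 lay above 0 (median 0.33) and 1, NDUFA2, was higher, at 3329.5, 2189 and 4454. Of 40 interferon-stimulated genes 2 were higher, SAMD9L at 295, 346 and 821 and IFIT3 at 2645, 1578 and 3339, with a median of 0.11.

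Signalling genes outside these groups differed one by one. Of 27 TGF-beta and BMP genes 6 were lower, among them INHBA, a subunit of activin, at 3009, 2998 and 723 and ID2, an inhibitor of differentiation factors, at 693, 3899.8 and 1165. BMP2 was at 361, 835 and 194, and SMAD7, FST and GDF15 were the others. In the Notch group the ligand JAG1 was at 3098, 4205 and 1643 and the target HEY1 at 783, 1375 and 472, while LFNG, a glycosyltransferase that modifies Notch, was higher at 399, 110.1 and 378. NRARP was the third lower gene of 14. NFIL3, BHLHE40 and BMAL1 of the circadian clock were lower among 15 genes, BMAL1 at 289, 481 and 201. Of the 15, 2 passed on the ATRA array alone. Of 20 WNT genes FZD8 alone was lower (5.00%, against 3.74% of all genes), and WNT7B was at 419, 557 and 1092. Genes of the aryl hydrocarbon receptor went both ways: AHR itself was at 511, 989 and 477 and TIPARP at 234, 698 and 186, whereas CYP1A1, the classic target that oxidizes polycyclic compounds, was higher at 1959.5, 1085 and 2735 (2.52-fold).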

How the data were processed

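Total RNA of HaCaT cells was labelled with Cy3 and hybridised to single-colour NimbleGen arrays, 1 array for each of 3 groups assigned by the labels' agent. The intensities deposited by the authors are RMA gene calls (background-corrected, normalized and summarised over 3 probes a transcript), per the file headers and names, on a linear scale. The sources used here do not name the software. Deposited intensities were taken to log2 and averaged over the transcripts of a gene. Random probes and transcripts without a gene name were left out, which kept 42947 of 45033 transcripts. Symbols were updated by Entrez number with the RefSeq table of GRCh38.p14, for 20227 of 23611 genes; other names are those of the files. A gene passed at a log2 level of 7.94 (intensity 246.4) or more on at least 1 array. Differences of at least 2-fold were counted. Where a transcript on the dimmer side was under 50, values under 50 were raised to 50 for the fold, which then reads "at least".

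With 1 array a group there was no test. The counting step was checked on simulated arrays. The text names the 20 highest and 20 lowest genes with 2 or more concordant transcripts, of each list the most different members and any at least 2-fold different where described, and a fixed set of barrier, retinoid and nicotinamide genes. Of 68 lists those that bear on the tissue and agents are described, and 7 blood lists were written after values were seen. The members, lists and naming rule were chosen with earlier results of these data known. Promoter windows, from RefSeq, were searched for motifs on both strands. Alternatives varied the filter, the summary of transcripts, the scaling and the treatment of dim values. Analyses used Python 3.11.15, pandas 2.3.3, NumPy 2.4.6 and Matplotlib 3.10.9. Some members counted in the lists are not reported by name here.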

Additional observations from a re-analysis of the deposited data

How the results depend on the processing

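With the alternatives, 326 to 526 genes were lower and 118 to 203 higher, apart from these. Without a filter 972 genes (4.12% of 23611) were lower and 730 (3.09%) higher. With the filter at the 75th percentile 221 and 48 were, of 6507 genes. With an offset of 100 added to the intensities, which shrinks the differences of dim genes, 75 were higher. Among the 4728 genes with 2 or more transcripts in 1 direction 273 were lower and 61 higher. Median centring, quantile normalization and the authors' deposited value table gave 454 to 477 lower and 170 to 188 higher genes. Of 866 list medians recomputed, 798 moved by less than the SD of 0.30 between transcripts, 66 moved further without a called sign change, and 2 turned. Both belong to lists whose medians are not given above. The hyaluronan and aquaporin list, at -0.34 with the main settings, was at 0.0814 when each gene took its brightest transcript. The matrix metalloproteinases, at -0.43 with the main settings, were at 0.0907 over the 4 genes with concordant transcripts. The cause was not tested. No named gene past 2-fold changed direction, and 171 of 3167 values for named genes moved by more than that SD, 96 of them with the offset. The filter on the control array and the counts without blood genes were added after the data were seen. No paired analysis was possible because each group holds 1 array and the labels carry no replicate numbers, and no replicate could be left out. Signals near the random probes, at 18.4 to 19.6, limit what can be read from dim genes.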

Other observations

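Of the lower genes, 281 belonged to no list, and of the higher genes 148. The following were chosen after their values were seen, and intensities are again in the order control, ATRA and ATRA+NIC. SNAI1, a transcriptional repressor of epithelial adhesion genes, was at 212, 2214 and 147, and MXD1, an antagonist of MYC, at 391, 1916 and 219.8. CD55, which protects cells from complement, was at 844, 2868 and 476, and ANGPTL4, a lipase inhibitor induced by fatty acids and hypoxia, at 368, 1579.9 and 218. MAP1LC3B and GABARAPL1, genes of autophagosome formation, were at 464, 1647 and 383 and at 1859, 5121 and 1427. LATS2, a kinase of the Hippo pathway, was at 1147, 3410.4 and 884, and the histone demethylase genes KDM3A and KDM6B were at 1174, 3399 and 904 and at 967, 2853 and 1029. CTH, which makes cysteine from cystathionine, was at 401, 1653 and 349. All of these were highest on the ATRA array.

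CDH5, the cadherin of vessel walls, was at 209, 2534 and 3263, and thus high on both retinoid arrays, while the other endothelial genes VWF and PECAM1 were at 65.1, 39.2 and 56.2 and at 21.7, 49.0 and 24.7. CFAP54, a cilia gene, was at 33.8, 19.9 and 336 and OR13G1, an olfactory receptor gene, at 33.2, 34.03 and 554. Both were under 50 on the ATRA array and so at least 6.72-fold and at least 11.1-fold higher with ATRA+NIC, and each rests on 1 transcript with 3 probes.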
